A study of Mus musculus with 10 samples.

Results

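Acod1, Slc2a6, Hk3, Pfkfb3, Nos2, Arg1 and Ido1 were followed in the RPE/choroid complex of the mouse eye, which joins the pigmented cell sheet behind the photoreceptors to the vessel bed that feeds it. They are 7 genes of the 55487 in the count table, picked by symbol because their enzymes and transporter set how activated macrophages use citrate, glucose, arginine and tryptophan. The choice was made with the difference between the groups known, so the levels and fold changes of these 7 genes describe the data and test nothing. Both groups are iDTR mice, C57BL/6 animals with the Gt(ROSA)26Sortm1(HBEGF)Awai allele, in which Cre switches on a diphtheria toxin receptor, and both received diphtheria toxin intraperitoneally. The 5 control samples are labelled iDTR alone, and the 5 samples called ADQ are iDTR Adiponectin-Cre. For the mice with Cre the injections are described as daily over 7 weeks; how long controls were injected is not stated separately. The adiponectin promoter that drives Cre is active in fat cells. No age is given, and the labels do not tie samples to animals: the p-values below rest on sample-to-sample spread, part of which may be technical.

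Acod1 encodes the mitochondrial enzyme that turns cis-aconitate, a citrate cycle intermediate, into itaconate, which inhibits succinate dehydrogenase and modifies the NRF2 inhibitor KEAP1. Macrophages switch the gene on with bacterial products and interferon-gamma, often together with more glucose uptake and glycolysis. Nos2 and Arg1 encode enzymes that compete for arginine, the former making nitric oxide and the latter urea and ornithine, and they mark classical and alternative activation of mouse macrophages. Ido1 encodes the interferon-induced enzyme that opens tryptophan breakdown to kynurenine.

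Library totals lay between 43591245 and 64087660 counts. RPE and endothelial marker sums ran from 28200 to 48200 and from 842 to 1260 CPM (counts scaled to library size) over all 10 libraries, so the labelled tissue carried its defining markers. Control 5 stood apart from the other controls in several respects that touch the results: it had 0 CPM of Adipoq, the adiponectin gene, against 4.06 to 7.93 CPM in the other controls and 0.176 to 1.67 CPM in ADQ, and the highest lymphocyte and NK marker level of the controls (1.53 against 0.00 to 0.62 log2 CPM). In tissue RNA, more cells of a type and more RNA per cell cannot be told apart.

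The stretches before the start sites of the 4 genes that were higher in ADQ are shown because these transcripts differed in the same direction and because the short motifs in them differ from gene to gene. They are RefSeq sequences on GRCm38.p6, read 5′ to 3′ on the gene's strand, and cover the 250 bases before the RefSeq start less any bases that GENCODE M21 places in an exon. Acod1 is at chr14:103046762-103046976 (plus strand), Slc2a6 at chr2:27027999-27028248, Hk3 at chr13:55021386-55021635 and the inner of the 2 Pfkfb3 starts in the table at chr2:11502102-11502340 (all minus strand). Capitals mark matches, on either strand, to the interferon-stimulated response element core, TTCNNNGAA (an interferon-gamma-activated site core), GGAANTTCC (an NF-kB-type palindrome), GTGAAA (an interferon regulatory factor half-site), ACGTG (a hypoxia response core) or TATAAA (the core promoter box).
Acod1: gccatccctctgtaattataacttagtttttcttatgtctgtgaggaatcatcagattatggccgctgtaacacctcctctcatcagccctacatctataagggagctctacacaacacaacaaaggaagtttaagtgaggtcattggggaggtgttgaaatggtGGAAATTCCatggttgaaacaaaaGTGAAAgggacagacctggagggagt
Slc2a6: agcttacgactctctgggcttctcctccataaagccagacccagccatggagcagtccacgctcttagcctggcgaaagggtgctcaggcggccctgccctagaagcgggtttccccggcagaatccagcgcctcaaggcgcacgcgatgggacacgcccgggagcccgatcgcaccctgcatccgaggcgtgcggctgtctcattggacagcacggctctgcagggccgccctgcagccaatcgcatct
Hk3: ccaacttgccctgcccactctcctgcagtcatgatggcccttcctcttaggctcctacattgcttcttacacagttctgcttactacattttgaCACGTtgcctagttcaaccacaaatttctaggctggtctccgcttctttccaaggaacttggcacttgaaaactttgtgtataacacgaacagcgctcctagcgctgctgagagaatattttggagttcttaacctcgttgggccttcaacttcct
Pfkfb3: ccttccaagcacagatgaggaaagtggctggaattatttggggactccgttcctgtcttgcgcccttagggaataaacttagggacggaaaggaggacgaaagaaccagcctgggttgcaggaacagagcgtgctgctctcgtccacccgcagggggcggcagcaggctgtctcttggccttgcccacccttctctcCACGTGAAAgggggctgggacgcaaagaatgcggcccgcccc

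The Acod1 stretch held GGAAATTCC at 85 to 77 bases before the RefSeq start and GTGAAA at 61 to 56. GGAANTTCC occurs in 0.8% and GTGAAA in 11.1% of 32851 windows of 250 bases in the same table. A TATAAA at 28 to 23 bases before that start lies beyond the printed stretch, in bases GENCODE M21 counts as exon; it occurs in 12.4% of windows. A reverse-strand ACGTG lies there too, at 18 to 14 bases before the start. In the Pfkfb3 stretch ACGTG, found in 16.6% of windows, occurred on both strands and overlapped a GTGAAA. Hk3 held 1 ACGTG on the reverse strand and Slc2a6 held no match. The response element core and TTCNNNGAA, in 3.0% and 7.0% of windows, matched in none of the 4 genes. The Acod1 and Hk3 windows had 44.4% and 47.2% G and C, under the median of 52.4% for all windows, and Slc2a6 had 65.2%. A match is a string of letters and does not show that a factor binds.

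Acod1 was the member with the largest positive difference. Its CPM, scaled by the trimmed mean of M-values (TMM), was 1.05, 0.513, 0.683, 0.733 and 2.74 in controls 1 to 5 and 8.78, 5.77, 8.49, 9.56 and 6.78 in ADQ 1 to 5. Every ADQ library lay above every control, and control 5 lay above the other controls but below the lowest ADQ library. In counts this was 26 to 132 reads in control against 295 to 445 in ADQ. The means were 1.15 ± 0.915 and 7.88 ± 1.55 CPM (SD, n = 5 each), a log2 fold change of 2.78 (SE 0.41). Without control 5 the log2 fold change was 3.40, and it ran from 2.60 to 2.87 without any other single library. The gene (ENSMUSG00000022126) has 1 transcript and 5 exons on the plus strand of chromosome 14, at 103046977 to 103056573 (GRCm38), with no other annotated gene over it.

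**Figure D1:**
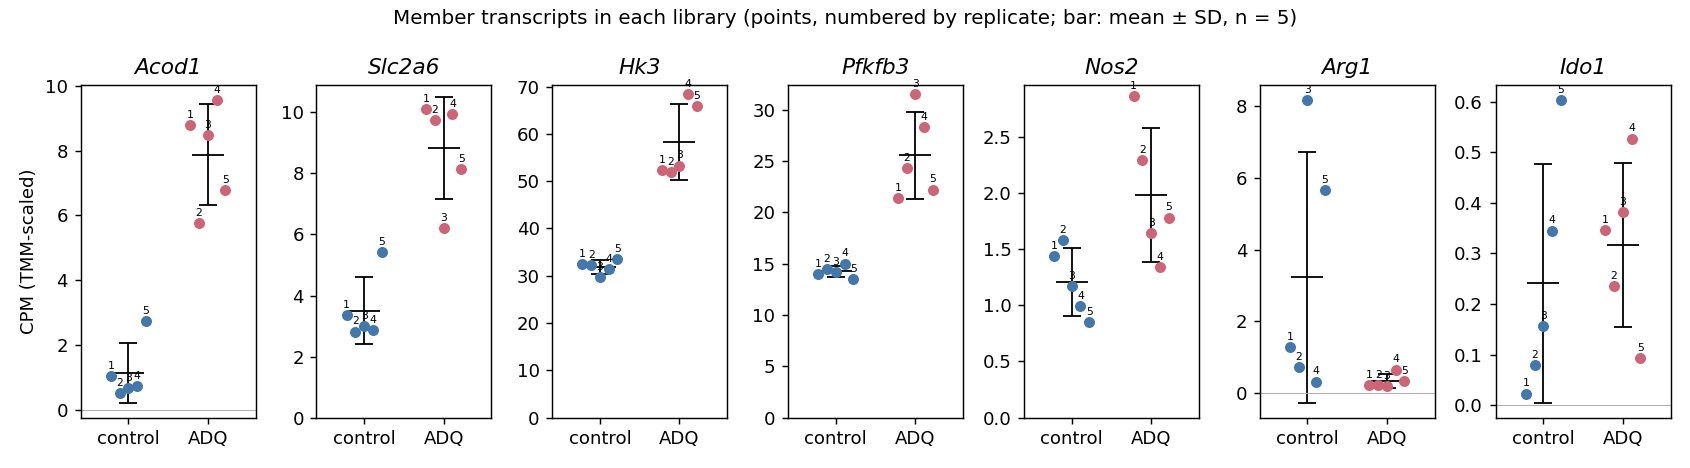
TMM-scaled CPM of the 7 members (panels) in each control (blue) and ADQ (red) library, numbered by replicate, with the mean and SD of 5 libraries as bars. In Acod1, Slc2a6, Hk3 and Pfkfb3 the groups do not overlap; in Nos2, Arg1 and Ido1 they do.

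The 3 genes of glucose entry and glycolysis were also higher in every ADQ library than in any control. Slc2a6 encodes GLUT6, a glucose transporter family member found mainly on lysosomes of macrophages. It was at 3.37, 2.82, 3.00, 2.87 and 5.42 CPM in controls 1 to 5 and at 10.1, 9.74, 6.20, 9.95 and 8.14 CPM in ADQ 1 to 5. Control 5 was again the highest control, and ADQ 3 the lowest ADQ library, still above it. The log2 fold change was 1.34 (SE 0.21), and 1.27 to 1.55 without any single library.

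Hk3 encodes a hexokinase of myeloid cells, which traps glucose in the cell by phosphorylation. It was at 32.5, 32.2, 29.7, 31.4 and 33.5 CPM in controls 1 to 5 and at 52.4, 51.9, 53.3, 68.4 and 65.8 CPM in ADQ 1 to 5. The controls lay close together, while ADQ 4 and 5 lay above ADQ 1 to 3. The log2 fold change was 0.87 (SE 0.10). Pfkfb3 encodes the enzyme that makes fructose 2,6-bisphosphate, the activator of the committed step of glycolysis. It was at 14.0, 14.5, 14.2, 15 and 13.5 CPM in controls 1 to 5 and at 21.4, 24.3, 31.5, 28.3 and 22.2 CPM in ADQ 1 to 5, a log2 fold change of 0.84 (SE 0.11). Control 5, the highest control in Acod1, Slc2a6, Hk3 and Ido1, was the lowest in Pfkfb3 and Nos2.

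The relative spread differed among these 4. In control the SD was 4.05% of the mean for Pfkfb3 and 4.49% for Hk3, against 31.4% for Slc2a6 and 79.9% for Acod1. In ADQ it ran from 13.7% for Hk3 to 19.7% for Acod1. Slc2a6 (ENSMUSG00000036067) is on chromosome 2 at 27021363 to 27027998 and Pfkfb3 (ENSMUSG00000026773) on the same chromosome at 11471433 to 11554077. Hk3 (ENSMUSG00000025877) is on chromosome 13 at 55005985 to 55021385, where Unc5a overlaps it on the other strand. Unc5a lay at 1.55 to 6.01 CPM in the controls and 2.21 to 5.17 CPM in ADQ, and whether reads of one were counted for the other cannot be told apart without the strand setting. Of 2 predicted genes that overlap Pfkfb3, Gm10851 reached at most 0.542 CPM and Gm37975 at most 0.0866 CPM.

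The arginine enzymes gave another picture. Nos2, inducible nitric oxide synthase, was at 1.44, 1.58, 1.17, 0.992 and 0.852 CPM in controls 1 to 5 and at 2.86, 2.29, 1.64, 1.34 and 1.78 CPM in ADQ 1 to 5. The groups overlapped, since ADQ 4 lay below controls 1 and 2. Its log2 fold change was 0.71 (SE 0.27) with an edgeR adjusted p of 0.265 over all genes, and the smallest over the alternatives was 0.13. The gene (ENSMUSG00000020826) is on chromosome 11 at 78920787 to 78960254.

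Arg1, arginase 1, was low in all ADQ libraries and uneven in control. It was at 1.28, 0.73, 8.17, 0.323 and 5.65 CPM in controls 1 to 5 and at 0.216, 0.235, 0.191, 0.659 and 0.34 CPM in ADQ 1 to 5. Controls 3 and 5 were high, with 419 and 272 reads, while control 4 held 15 reads and lay within the ADQ range. The log2 fold change was -3.30 (SE 0.88, edgeR adjusted p = 0.141), and from -3.70 to -1.60 over the alternatives, of which DESeq2 alone called it lower (adjusted p = 0.00572). The gene (ENSMUSG00000019987) is on chromosome 10 at 24915221 to 24927484.

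Keratins of the ocular surface were high in the same control libraries as Arg1. Krt5, a basal epithelial keratin, was at 24.7, 0.355, 316, 10 and 117 CPM in controls 1 to 5 and at 0 to 0.132 CPM in ADQ. Controls 3, 5 and 1 held the most Krt5 and, in the same order, the most Arg1. The 6 keratins listed summed to 2.21 to 2070 CPM in control and 0.65 to 1.74 CPM in ADQ, with Krt12 at most 0.275 CPM. The mean log2 CPM of the 4 keratins that passed the count filter differed by -6.72 (exact two-sided permutation p = 0.00794, 0.0317 adjusted over 12 marker lists). That p is the smallest 5 against 5 libraries can give. None of the 4 keratins tested passed in edgeR (4 at an unadjusted p of 0.05), while DESeq2 called 5 of 5 lower and voom 0. Alox15, a lipoxygenase listed with alternative activation, was also highest in control 3, at 38.4 CPM against 0.395 to 5.55 CPM in the other controls and at most 0.763 CPM in ADQ (edgeR adjusted p = 0.152; called by 1 of 18 alternatives). The part of carried-over surface epithelium in the Arg1 and Alox15 values was not tested.

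**Figure D2:**
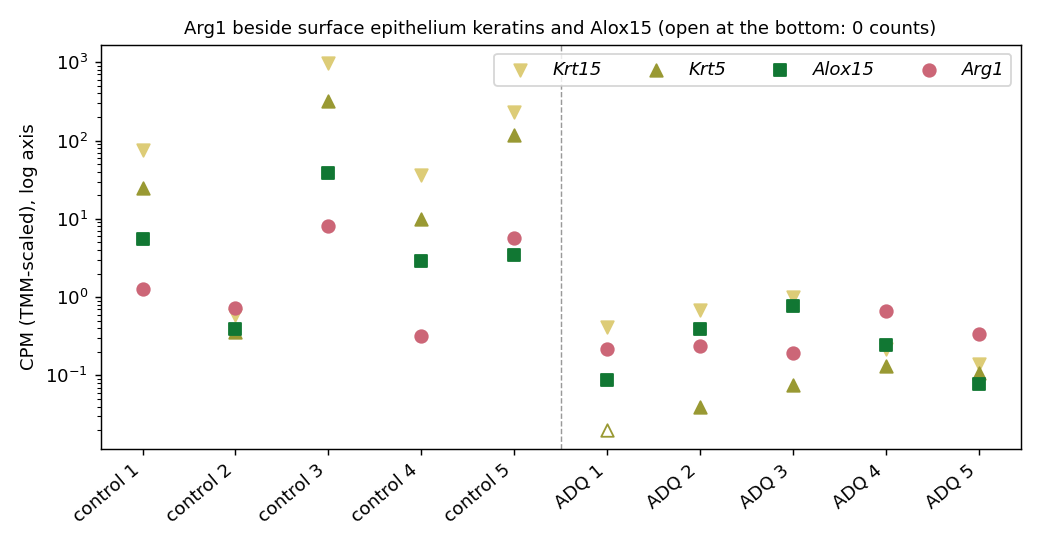
TMM-scaled CPM (log axis) of Arg1, Alox15, Krt5 and Krt15 in each library, with an open symbol at the bottom for a count of 0. Control 3 is highest in all 4 genes and control 5 is next in Arg1, Krt5 and Krt15; the keratins are near 0 in every ADQ library.

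Ido1 was close to the limit of detection. Its counts were 1, 4, 8, 16 and 29 in controls 1 to 5 and 16, 12, 20, 24 and 6 in ADQ 1 to 5. The count of 1 has an exact 95% Poisson interval of 0.0253 to 5.57, which covers counting error only. The highest value was in control 5 and the next in ADQ 4, and the ADQ range lay within the control range. The log2 fold change was 0.37 (SE 0.66, adjusted p = 0.824), and 0.0945 to 1.06 over the alternatives, none of which called it. Ido1 (ENSMUSG00000031551) is on chromosome 8 at 24584136 to 24597009.

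In the fit over all genes 4 of 7 members passed an adjusted p of 0.05, all higher in ADQ, where 0.827% of 20684 genes passed in either direction, 0.74% higher and 0.087% lower. The same 4 were higher in every ADQ library than in any control, as were 2.09% of all genes; 1.07% were lower in every ADQ library, 3.16% together. Nothing is read from these counts, since the contrast was known when the members were picked. The adjusted p was 0.00756 for Acod1, 0.00821 for Slc2a6, 9.2e-04 for Hk3 and 0.00296 for Pfkfb3, and each stayed under 0.05 in all 19 alternatives. The all-gene median was 0.01 on the log2 scale. All 7 members passed the filter on low counts.

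Per kilobase of exon, Hk3 was the most abundant member in both groups, at 8.65 ± 0.388 CPM per kb in control and 15.9 ± 2.18 in ADQ (SD, n = 5). In control Pfkfb3 (1.88 ± 0.0764), Arg1 (1.45 ± 1.57) and Slc2a6 (1.09 ± 0.342) followed, with Acod1 (0.437 ± 0.349), Nos2 (0.274 ± 0.0687) and Ido1 (0.132 ± 0.129) below them. Within 1 SD, Arg1 overlapped both its neighbours, Slc2a6 overlapped Acod1, and the 3 lowest genes overlapped each other. In ADQ the order was Pfkfb3 (3.38 ± 0.565), Acod1 (3.00 ± 0.593) and Slc2a6 (2.75 ± 0.521), which do not differ beyond their SDs, then Nos2 (0.449 ± 0.135), Ido1 (0.173 ± 0.0893) and Arg1 (0.147 ± 0.0869), of which the last 2 overlap. Lengths join the exons of all transcripts, 21 of them for Pfkfb3, which lowers a gene with many alternative exons.

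The authors' deposited table, made with another fit, lists 15860 genes and calls 5.42% of them. For the 5 members read from it, the authors' deposited table gives log2 fold changes of 3.27 for Acod1 (95% interval 2.52 to 4.02), 1.51 for Slc2a6, 0.92 for Hk3, 0.86 for Pfkfb3 and 0.49 for Nos2 (-0.06 to 1.04). It is based on the same libraries and adds no replicate.

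Of 11 tested relatives in these enzyme and transporter families edgeR called 0, with 4 at an unadjusted p of 0.05, which 13.8% of all genes passed. Hk1, the widespread hexokinase, averaged 187 ± 22.4 CPM in the controls against 218 ± 35.7 CPM in ADQ (log2 fold change 0.22, SE 0.12, adjusted p = 0.427). Hk2, the insulin- and hypoxia-regulated form, was at 9.52 ± 1.10 and 14.1 ± 3.36 CPM (log2 fold change 0.57, SE 0.16, adjusted p = 0.123), and ADQ 1 at 10.8 CPM overlapped control 1 at 11.1 CPM. Hk2 passed under 2 of 19 alternatives. Pfkfb2 and Pfkfb4 had log2 fold changes of 0.21 (SE 0.18) and -0.03 (SE 0.13), the latter with either sign over the scalings.

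Among glucose transporters Slc2a1, which encodes GLUT1 of the RPE and blood vessels, averaged 1117 ± 25.2 CPM in the controls and 1118 ± 127 CPM in ADQ (log2 fold change 0.00, SE 0.09, of either sign over the alternatives). Slc2a3 (GLUT3) lay at 1.95 to 2.91 CPM in the controls and 2.99 to 3.91 CPM in ADQ, without overlap, and had an adjusted p of 0.183 (log2 fold change 0.59). Slc2a8 was at 53.8 ± 2.86 and 46.2 ± 4.1 CPM, lower in every ADQ library than in any control (edgeR adjusted p = 0.264). Nos1 and Nos3, the neuronal and endothelial synthases, had log2 fold changes of -0.13 (SE 0.09) and 0.08 (SE 0.16); the latter had either sign over the alternatives. Arg2, the mitochondrial arginase, was at 0.575 ± 0.125 and 0.989 ± 0.308 CPM (log2 fold change 0.78, SE 0.30, adjusted p = 0.276). Tdo2, the liver-type tryptophan dioxygenase, was at 0.292 ± 0.121 and 0.329 ± 0.12 CPM, and Ido2, under the count filter, at 0 to 0.0458 CPM in control and 0 to 0.281 CPM in ADQ. No difference between a member and its relatives was tested, as the members' contrast was known beforehand.

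**Figure D3:**
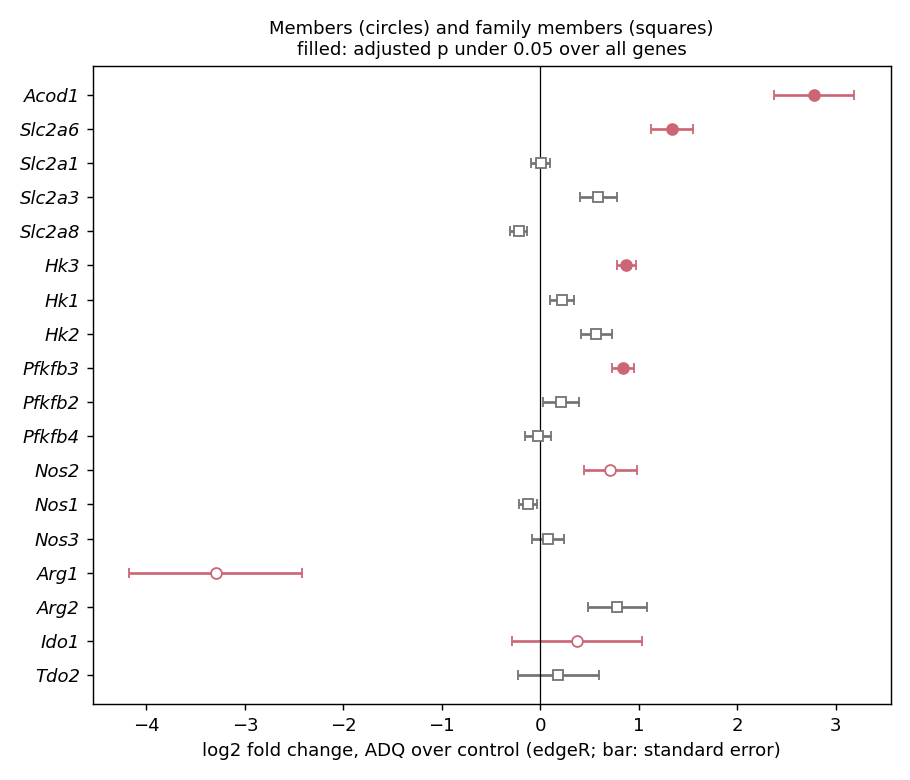
Log2 fold change, ADQ over control, of the 7 members (circles) and 11 family members (squares) with its standard error, filled where the edgeR adjusted p was under 0.05 over all genes. Acod1, Slc2a6, Hk3 and Pfkfb3 are filled and no family member is; Arg1 lies lowest with a standard error of 0.88.

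The surrounding pathways were read from 9 lists, members left out, with 155 genes tested. Of these 6 rose and 0 fell (3.87% called, against 0.827% of all genes), and their median log2 fold change was 0.03. DESeq2 called 15 higher and 1 lower, an alternative activation gene, and voom 14 higher and 2 lower, both glycolysis genes. In edgeR the lists that use glucose and citrate held none of the 6. Of 24 genes of itaconate and citrate metabolism 0 passed, 8 lay above 0 on the log2 scale and the median was -0.11. Clybl, which clears the itaconate product citramalyl-CoA, had the smallest p there (92.1 ± 15.3 and 70.1 ± 9.36 CPM, adjusted p = 0.195), followed by Idh3g, a subunit of the NAD-dependent isocitrate dehydrogenase (adjusted p = 0.252).

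Of 14 genes of the NRF2 and electrophile response, which itaconate can induce, 0 passed and the median was 0.01. Hmox1, heme oxygenase, was at 36.2 ± 3.32 and 40.1 ± 4.59 CPM (adjusted p = 0.506), and the stress factor Atf3 at 19.9 ± 3.21 and 24.1 ± 7.13 CPM (adjusted p = 0.511). At an unadjusted p of 0.05 edgeR passed 6 of the citrate genes, all of them lower in ADQ, and 0 of the NRF2 genes. DESeq2 and voom called 0 in both lists, while the authors' deposited table called Clybl and Suclg1 lower. Of 24 glycolysis genes 0 passed, 9 lay above 0 and the median was -0.17, opposite in sign to Hk3 and Pfkfb3. Gapdh, a glycolytic dehydrogenase, averaged 1352 ± 166 CPM in the controls against 968 ± 220.2 CPM in ADQ (log2 fold change -0.48, edgeR adjusted p = 0.184). Gapdh was lower in every ADQ library than in any control. It was called lower in 2 of 19 alternatives, voom among them (adjusted p = 0.0446). Of 13 glucose and lactate transporters 0 passed, with a median of 0.07. At an unadjusted p of 0.05, 11 of 24 glycolysis genes and 3 of 13 transporters passed, against 13.8% of all genes. Of the former Hk2, Tigar and Hif1a were higher and the others lower. Of the latter Slc2a3 was higher, and Slc2a8 and Slc16a8 were lower. DESeq2 called 1 glycolysis gene higher, voom 1 higher and 2 lower, and both called 0 transporters. The authors' deposited table called Gapdh, Aldoa and Ldhb lower, and Hk2 and Slc2a3 higher.

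None of 19 genes of arginine and nitric oxide metabolism passed in edgeR (median -0.03), with 6 at an unadjusted p of 0.05. DESeq2 called 0 and voom 1, while the authors' deposited table called Slc7a2 higher and Gchfr lower. Slc7a2, the arginine importer of macrophages, was at 12.9 ± 2.34 and 17.5 ± 1.5 CPM (log2 fold change 0.44, adjusted p = 0.141; adjusted p = 0.0174 to 0.307 over the alternatives). Gch1, which starts synthesis of the cofactor tetrahydrobiopterin, was at 16.2 ± 1.13 and 20.7 ± 3.62 CPM (adjusted p = 0.224). Of 13 tryptophan and kynurenine genes 1 rose in edgeR (4 at an unadjusted p of 0.05), and DESeq2 and voom each called 2 higher. Kynu lay at 0.488 to 0.811 CPM in the controls and 1.07 to 1.83 CPM in ADQ, without overlap. It did not pass (log2 fold change 1.17, edgeR adjusted p = 0.0578), though the authors' deposited table called it higher. Wars, the interferon-induced tryptophan tRNA synthetase, rose by 0.52 on the log2 scale (SE 0.11, adjusted p = 0.0389): controls held 57.6 to 84.1 CPM and ADQ libraries 92.0 to 115. This call was lost, at an adjusted p of 0.0669 to 0.123, without control 1, 2 or 4 or ADQ 2, 3, 4 or 5, and at 0.0611 with library size alone as the scaling.

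**Figure D4:**
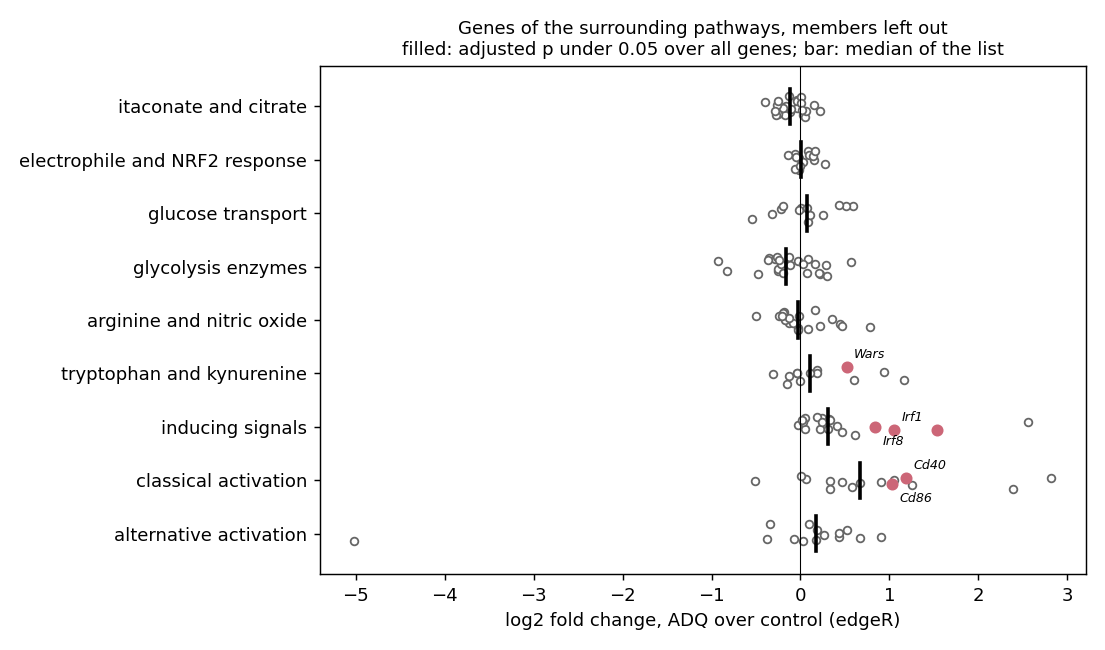
Log2 fold change, ADQ over control, of each gene tested in the 9 pathway lists (points), filled where the edgeR adjusted p was under 0.05, with 5 of the filled genes named, with a bar at each list's median. The 6 filled genes lie in the tryptophan, inducing signal and classical activation lists; the list medians run from -0.17 to 0.68.

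The list of inducing signals held 3 of the rises. Of 19 tested, 18 lay above 0, with a median of 0.31. The list was not limited to signals that switch Acod1, Nos2 and Ido1 on, and also held genes of IL-4 and IL-10 signalling. Of these Il4, Il4ra, Stat6 and Il10ra had log2 fold changes of 0.32, 0.25, 0.02 and 0.47, and none of them passed. Irf1, a transcription factor of the interferon response, was at 42.1, 45, 53, 62.4 and 72.7 CPM in controls 1 to 5 and at 116, 117, 110, 118 and 110 CPM in ADQ 1 to 5. As in Acod1 and Slc2a6, control 5 was the highest control and the groups did not overlap. Irf1 rose by 1.05 on the log2 scale (SE 0.13, adjusted p = 0.00195).

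Irf8, a transcription factor of myeloid cells, rose by 0.84 on the log2 scale (adjusted p = 0.022), but lost its call without control 1 or 2 or ADQ 1, 2 or 4 (adjusted p = 0.0504 to 0.0759). Ifng itself lay at 0 to 0.436 CPM in the controls and 0.615 to 1.04 CPM in ADQ, without overlap, and did not pass (adjusted p = 0.192). Nfkb1 and Rela, NF-kB subunits, had log2 fold changes of -0.02 and 0.03.

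Of 15 classical activation genes tested 2 rose, 14 lay above 0, with a median of 0.68. At an unadjusted p of 0.05, 10 passed in edgeR, and DESeq2 called 6 and voom 4 higher. Cxcl9 and Cxcl10 had the largest log2 fold changes, 2.81 and 2.39. Their groups did not overlap, and neither passed in edgeR (adjusted p = 0.230 and 0.0863). The authors' deposited table called both higher, with log2 fold changes of 3.81 and 2.55. Cd86 and Cd40, costimulatory molecules of antigen-presenting cells, rose by 1.03 (SE 0.20, adjusted p = 0.0238) and 1.19 (SE 0.23, adjusted p = 0.0245) on the log2 scale. Cd86 lost its call without control 2 or 4 or ADQ 2, 3 or 4 (adjusted p = 0.0519 to 0.0827), and Cd40 without control 1, 2 or 4 or ADQ 1, 2 or 3 (adjusted p = 0.0504 to 0.0847). Of 14 alternative activation genes tested 0 passed, and the median was 0.18; at an unadjusted p of 0.05 Alox15 and the chemokine gene Ccl22 did, and DESeq2 called 2 and voom 0. Chil3 and Retnla, markers that accompany Arg1 in alternatively activated macrophages, were at 3.46 to 25.9 and 28.3 to 50.0 CPM in control and at 5.59 to 14.3 and 17.0 to 98.6 CPM in ADQ. Chil3 was highest in control 5, at 25.9 CPM, with 3.55 CPM in control 3, where Arg1 was highest. Retnla was at 50.0, 28.9, 40.7, 28.3 and 29.2 CPM in controls 1 to 5, so control 5 lay near controls 2 and 4. Its highest level was in ADQ 2.

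Over the whole set of 9 lists the count was sensitive to single libraries. It was 11 without control 5, 2 without control 2 or ADQ 2, and 3 without control 1, control 4, ADQ 3 or ADQ 4.

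Markers of the cells that could carry these transcripts were read alongside. Of 16 macrophage markers 3 rose: Aif1 (log2 fold change 0.92, adjusted p = 0.00756), Adgre1 (0.47, adjusted p = 0.0476) and Cd53 (0.43, adjusted p = 0.0341). At an unadjusted p of 0.05, 6 passed in edgeR, and DESeq2 called 5 and voom 4 higher. Adgre1 lost its call without any 1 of the 10 libraries (adjusted p up to 0.144), and with RLE scaling (0.0538). Csf1r, the macrophage growth factor receptor, was at 306.6 ± 20.1 and 310.6 ± 21.1 CPM, and Cd68, a lysosomal protein, at 394 ± 61.7 and 402 ± 95.2 CPM; their log2 fold changes of 0.02 (SE 0.08) and 0.03 (SE 0.16) took either sign over the alternatives. C1qa was at 269 ± 33.3 and 337 ± 67.4 CPM (adjusted p = 0.314). The median of the list was 0.31 with 15 of 16 above 0, and the summed level was 6510 to 8990 CPM in control and 7210 to 11300 in ADQ. Its mean log2 CPM differed by 0.29 (exact permutation p = 0.0159; 0.0476 adjusted over 12 lists, and 0.0714 to 0.0952 without control 1, 2, 3 or 4).

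Dendritic cell markers, 9 in number, had 9 log2 fold changes above 0, and Xcr1 of type 1 conventional dendritic cells rose by 2.10 (adjusted p = 0.0141), from 0.234 to 1.43 CPM in control to 2.77 to 4.31 in ADQ. Xcr1 was the 1 of 9 that passed in edgeR (5 at an unadjusted p of 0.05, 5 with DESeq2, 3 with voom). The list's mean log2 CPM differed by 0.71 and that of the lymphocyte and NK cell list by 1.21, each with an exact permutation p of 0.00794 (0.0317 adjusted over 12 lists). The dendritic cell list summed to 108 to 129 CPM in control and 136 to 154 in ADQ, and the lymphocyte list to 28.3 to 96.0 and 86.2 to 122 CPM. Of 9 neutrophil markers 0 passed (4 at an unadjusted p of 0.05, 1 with DESeq2, 0 with voom). Their mean levels overlapped between the groups (difference 0.02, exact permutation p = 0.944). That mean joined opposite signs, with 6 of 9 above 0. Of the 4, S100a8, Retnlg and Csf3r were higher and Ltf lower (log2 fold change -3.69). Ltf was at 2.27, 0.414, 19, 0.776 and 8.04 CPM in controls 1 to 5, ranked as Krt5 was, and at most 0.822 CPM in ADQ. The DESeq2 call was lower. Ly6g was at most 0.104 CPM. The part of these cell types in the member differences was not tested. Of the lymphocyte list 0 of 14 passed in edgeR (8 at an unadjusted p of 0.05, 0 with DESeq2, 6 with voom). Of the mast cell, RPE, endothelial, rod, muscle, adipocyte and erythroid markers edgeR called 0, with median log2 fold changes of -1.04, -0.15, -0.08, 1.25, -0.50, -2.07 and 0.17. Unadjusted, 2 mast cell and 5 adipocyte markers passed 0.05 and 0 in the other 5 lists; voom called 2 mast cell and DESeq2 2 adipocyte markers.

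The 5 genes with log2 CPM profiles closest to Acod1 over the 10 libraries, each gene centred on its own mean, were Tgtp1, Tgtp2, Cd3g, Dnase1l3 and Irgm2, out of 13467 protein-coding genes averaging 1 CPM or more, predicted gene models and receptor segments left out. Their root mean square differences from Acod1 were 0.41, 0.45, 0.50, 0.51 and 0.52 log2 units. Tgtp1, Tgtp2 and Irgm2 encode interferon-inducible GTPases, Cd3g a chain of the T cell receptor complex and Dnase1l3 a secreted DNase of dendritic cells and macrophages. In all 5, as in Acod1, control 5 was the highest control, at 51.1 CPM of Tgtp1 against 11.7 to 22.4 CPM and at 8.81 CPM of Cd3g against 0.995 to 2.34 CPM. This shared trait follows largely from the choice, since the 5 were picked for closeness to Acod1 over these same libraries. Control 5 held more Cd3g than ADQ 5, at 8.51 CPM, so the groups overlapped there. Tgtp1 and Tgtp2 are near-identical neighbours, and their separate values are uncertain. By the same measure, which also counts differences in the size of the fold change, Slc2a6 lay at 0.92, Hk3 at 1.21, Pfkfb3 at 1.25 and Nos2 at 1.42 from Acod1.

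**Figure D5:**
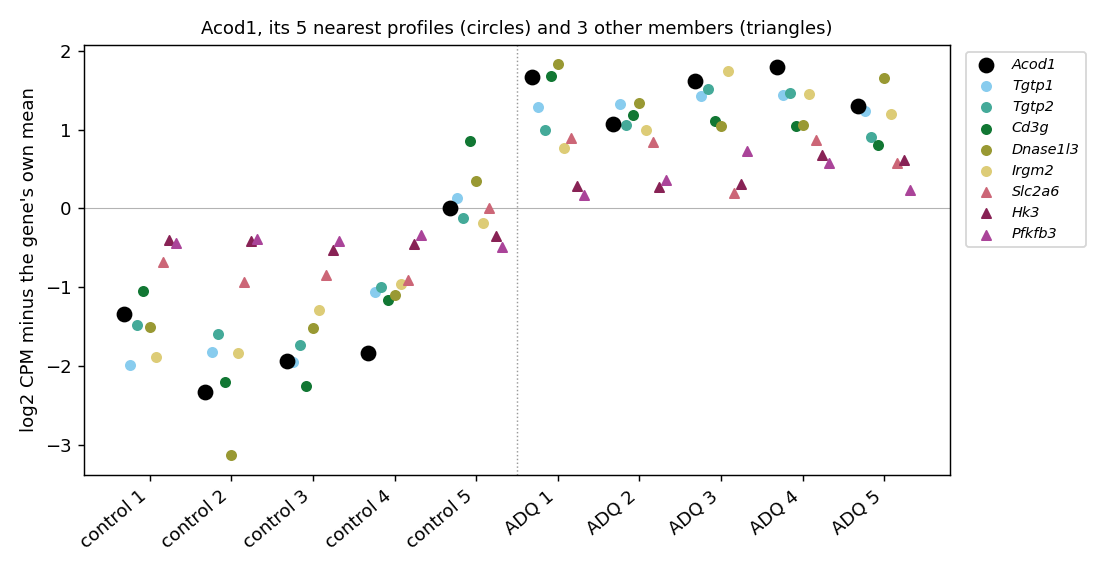
Log2 CPM minus each gene's own mean over the 10 libraries, for Acod1 (large black circles), the 5 genes nearest to it (small circles) and Slc2a6, Hk3 and Pfkfb3 (triangles). Control 5 lies above the other 4 controls in Acod1, its 5 nearest genes and Slc2a6, while Hk3 and Pfkfb3 stay level across the controls.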

How the data were processed

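The deposited table for the 10 RPE/choroid samples holds raw counts of each Ensembl gene. TRIzol lysis, NucleoSpin purification and SMARTer amplification preceded sequencing, per the labels' protocols. Named without version or role in the submitters' processing notes are GRCm38, bcl2fastq, DRAGEN, edgeR and limma; for strand and counting, settings are not given in the sources used. The authors' deposited table also holds log2 CPM, log2 fold changes and p-values, and score columns and a signed fold column that were not used. Of 55774 entries, 287 repeats were removed, and 0 per-sample columns were left unused.

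Genes were tested with edgeR 4.0.16 (R 4.3.3): filterByExpr defaults (minimum count 10, total 15), TMM scaling, robust quasi-likelihood fit with group as the term, and Benjamini-Hochberg adjustment over 20684 genes at 0.05. Standard errors are the log2 fold change over the root of F. CPM are TMM-scaled, and log2 CPM add a prior count of 2. Marker levels were compared by exact permutation over 252 assignments. The smallest chi-square between libraries was 33.9 per degree of freedom, so none was a duplicate. On simulated counts of 20684 genes for this comparison, the test recovered 46.3% of 67 genes with a 1.5-fold change, 82.1% of 67 at 2-fold and 95.5% of 66 at 4-fold. It also called 5 unchanged genes. The changed genes were drawn from those averaging at least 1 CPM, so these rates do not cover genes below that, such as Ido1.

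The members, the 9 pathway and 12 marker lists and the motifs were chosen with earlier results of these data known. Named were all members, 12 family genes, from each pathway list the passing genes up to 6 or otherwise the 2 smallest p, 5 macrophage markers and the 5 profiles nearest to Acod1. The values of 1 pathway gene are not reported here. Ifng, Nfkb1, Rela, Chil3, Retnla, Krt5, Krt15, Xcr1, Cd53 and Adipoq were added after their values were seen. So were Il4, Il4ra, Stat6, Il10ra, Cxcl9, Cxcl10, Kynu, Suclg1, Aldoa, Ldhb, Tigar, Hif1a, Slc16a8, Ltf, S100a8, Retnlg, Csf3r and Gchfr. Alternatives were RLE, upper-quartile and library-size-only scaling, no or a stricter filter (1 CPM in 5 libraries), DESeq2 1.42.0, voom with sample quality weights (limma 3.58.1), a fit without robust moderation, the replicate number as a block and each library left out. Exon lengths and positions come from GENCODE M21 (GRCm38), which holds 99.5% of the genes; 4 of 7 members had an entry among the RefSeq promoter sequences, and Nos2, Arg1 and Ido1 are named only. The sources used mention no molecular identifiers, and counting intervals cover counting error only.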

Additional observations from a re-analysis of the deposited data

Results flagged for a closer look

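Single libraries stood far from their group in 6 of the 38 sets of 5 values looked at, where chance gives about 1 in 20. For Acod1 it was control 5, at 2.74 CPM with controls 1 to 4 between 0.513 and 1.05. For Slc2a6 it was control 5 again, at 5.42 CPM with the others between 2.82 and 3.37. Control 5 was also low in the adipocyte list, at a mean of -0.885 log2 CPM against 2.69 to 3.72. Control 1 was high in rod markers (6.87 log2 CPM against 4.43 to 4.68). ADQ 2 was high in neutrophil markers (1.54 against 1.05 to 1.11), and ADQ 5 low in skeletal muscle markers (5.50 against 7.65 to 7.97).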

How the results depend on the processing

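Acod1, Slc2a6, Hk3 and Pfkfb3 kept their direction and their call in all 19 alternatives run, and the member count was 4 throughout, except 5 with DESeq2, which added Arg1. Over all genes 171 passed (153 higher, 18 lower). The count was 768 with DESeq2 (502 higher, 266 lower), 664 with voom and quality weights (511 and 153), and 78 to 357 with 1 library left out, being lowest without control 4 and highest without control 5. Without control 1 it was 96, without ADQ 2 81, without ADQ 3 99 and without ADQ 4 87. The non-robust fit called 202 (161 higher, 41 lower). The 6 pathway genes became 16 with DESeq2, 16 with voom and 2 to 11 with 1 library left out; the cause was not tested. Of 5 same-numbered pairs 1 had deviations correlated above 0.1 (-0.113 to 0.163), and 1 of 5 controls correlated best with its own number. With so few pairs this cannot settle whether the numbers mark something shared by the samples. With the number as a replicate block 694 genes passed (392 higher, 302 lower), among them 4 members, all higher, and 19 pathway genes (12 higher, 7 lower), including Clybl (-0.387, adjusted p = 0.0131) and Gapdh (-0.506, adjusted p = 0.0402), both lower. Without the low-count filter 235 genes passed and with the stricter one 182, a filter Arg1 and Ido1 did not pass. Of 12 marker lists 4 passed, and 3 to 5 with 1 library left out.

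Small log2 fold changes that did not pass took the other sign as follows. Slc2a1 was at -0.00544 with RLE, -0.00492 with upper quartile scaling, -0.00464 with the block, -0.00635 with DESeq2 and -0.0632 to 0.037 with 1 library left out. Pfkfb4 was at 0.0571 with library size alone and -0.117 to 0.0462 with 1 library left out. With voom Tdo2 was at -0.177, Csf1r at -0.0156 and Cd68 at -0.0118. With 1 library left out Tdo2 ran from -0.0163 to 0.428, Csf1r from -0.0205 to 0.0398, Cd68 from -0.107 to 0.112, Nos3 from -0.00309 to 0.201 and the neutrophil marker difference from -0.126 to 0.134. Library size alone moved the all-gene median from 0.0121 to 0.0969. Depth limits Ido1 most, with 1 to 29 reads a library.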
